A study of Homo sapiens with 6 samples.

Results

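MHC class I molecules carry peptides from proteins made inside a cell to its surface. Genes of this route, 9 in number, were followed in the retinal pigment epithelial line ARPE-19, as wild type and after knockout of the gene POLDIP2. They are the class I heavy chains HLA-B, HLA-C and HLA-E, the light chain B2M, the peptide transporter subunits TAP1 and TAP2, the bridging protein TAPBP, and the inducible proteasome subunits PSMB8 and PSMB9. These 9 genes were chosen by name among the 37882 genes of the deposited table, with rows that share a symbol summed. ARPE-19 is a long-established human line. For POLDIP2 KO, its cells received a lentiviral vector with SpCas9 and a guide RNA that cuts in the POLDIP2 coding region, were selected in puromycin and expanded, and WT is ARPE-19 wild type. Both lines were under regular maintenance, and 3 biological replicates of each were taken at day 3, which gives 6 RNA-seq libraries. All 3 POLDIP2 KO libraries come from 1 transduced line, so an effect of the knockout and a difference between this line and WT cannot be told apart.

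Peptides are cut from cytosolic proteins by the proteasome, pumped into the endoplasmic reticulum by the TAP1/TAP2 transporter, trimmed there, and loaded onto a heavy chain paired with B2M while TAPBP (tapasin) holds the chain beside the transporter. Interferons are known to raise most of these genes together, through transcription factors and through the class I transactivator NLRC5. In the eye, retinal pigment epithelial cells are known to carry class I molecules on their surface, and class II molecules appear on them mainly after exposure to interferon-gamma.

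The deposited values are normalised counts, that is, reads per gene divided by a size factor for each library. Depth was 31532797 to 45795509 recovered reads per library. POLDIP2 itself was at 3919, 4827 and 4798 normalised counts in replicates 1, 2 and 3 of WT, and at 1063, 1248 and 1143 in those of POLDIP2 KO (log2 fold change -1.97, limma adjusted p = 0.0096). Of the 11 RPE markers, RPE65 and TTR were listed at 0 in all 6 libraries and TYR was at 0 to 2.98 normalised counts. TYRP1 (1.04 to 27.1), RLBP1 (19.7 to 68.2), PMEL (36.7 to 103), BEST1 (61.4 to 669), OTX2 (574 to 883, with the POLDIP2 KO library below its WT pair each time) and MITF (2955 to 4503) were detected at higher counts, as were the epithelial keratins KRT8 (34222 to 48481) and KRT18 (29007 to 35762). Leukocytes and endothelial cells express class I genes strongly. The 9 leukocyte markers summed to 74.1 to 84.3 normalised counts in WT and 39.4 to 51.6 in POLDIP2 KO, with CD3E and TYROBP at 0 throughout. CSF1R was lower without overlap (15.7 to 48.2 in WT, 4.92 to 14.7 in POLDIP2 KO). PTPRC was at 0 in WT and at 1.23, 3.26 and 6.95 in POLDIP2 KO, and CD14 at 0, 3.01 and 2.09 in WT and 3.69, 6.51 and 2.98 in POLDIP2 KO. The row of AIF1 was at 0, but AIF1 has 5 identical alternate copies, so this gives no level. The 6 endothelial markers summed to 39.7 to 201 and 46.7 to 149. The part of such cells in the results was not tested. In bulk RNA, a change in the share of cells and a change in RNA per cell cannot be told apart.

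How far each gene could be measured depended on the genome. GRCh38 carries alternate contigs, which are further versions of variable regions such as the MHC on chromosome 6. Canonical GENCODE 44 transcripts of the 9 genes were aligned to the 261 alternate contigs, with a copy counted at 95% coverage and 95% identity, and 8 contigs held a copy of at least 1 of them. PSMB8 had 7 copies, 6 of them identical to the primary transcript. TAP1 had 7 with 5 identical, PSMB9 7 with 3 identical, HLA-E 6 with 2 identical and TAPBP 4 with 1 identical. None was identical for TAP2 (4 copies, 2 to 4 mismatched bases), HLA-C (6 copies, 4 to 61 mismatches), HLA-B (3 copies, 22 to 49 mismatches) or B2M (1 copy, 1 mismatch). A gene whose copy has its own identifier can have its reads divided among rows, and rows were summed only where a name table paired the identifier with the symbol. For B2M and TAP2 such a second row was found. For the other 7 genes only 1 row was named, and any further rows among the 3736 unnamed ones were not analysed here.

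**Figure D1:**
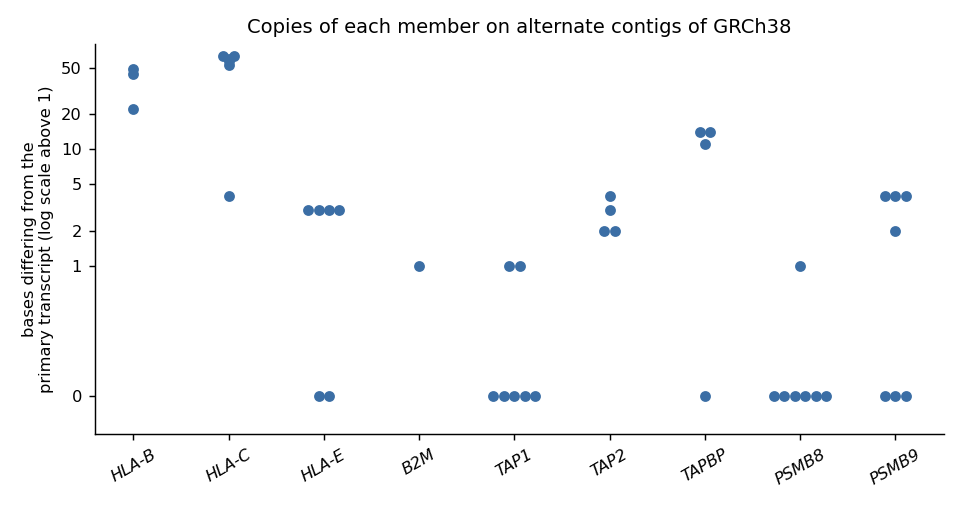
Bases by which each alternate-contig copy of a member differs from the primary transcript (mismatches plus gaps, log scale above 1), 1 point per contig. PSMB8 and TAP1 have 6 and 5 identical copies, while HLA-B, HLA-C, B2M and TAP2 have none.

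The single base that separates the B2M copy from the primary transcript is G612C, counted from the first base of the transcript, at chr15:44717814-44717814 in the 3′ UTR (exon 4). It is shown because reads that miss this base cannot be placed on one of the B2M sequences alone. The base is in capitals.
B2M, primary chromosome 15: aggtagctctagGagggctggcaac
B2M, alternate contig: aggtagctctagCagggctggcaac

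HLA-E differs from its copies on 4 contigs at 3 bases, T317C and G405A in the coding sequence and G1662A in the 3′ UTR. The second of them, in exon 3 at chr6:30490287-30490287, is shown with the base in capitals, because the row of HLA-E turned out to be listed at 0.
HLA-E, primary chromosome 6: ctggggcccgacGggcgcttcctcc
HLA-E, 4 alternate contigs: ctggggcccgacAggcgcttcctcc

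The upstream sequences show which searched motifs the heavy chain and light chain genes have in common. RefSeq sequences from 250 bases before to 50 bases after the transcription start were at hand for 8 of the 9 genes (build GRCh38.p14), with none for HLA-E. Stretches from 200 to 41 bases before the start are printed for HLA-B, HLA-C and B2M, which share an arrangement of motifs, and for TAP2, which had the largest change of the members. Capitals mark the letters searched on both strands: TGACG (the core of a cAMP response element), ATTGG (the reverse of the CCAAT box), GAAANNGAA and GAANNGAAA (interferon-response type repeats, which can overlap each other) and GGGNNTCCC (NF-kB type).
HLA-B, minus strand, chr6:31357220-31357379: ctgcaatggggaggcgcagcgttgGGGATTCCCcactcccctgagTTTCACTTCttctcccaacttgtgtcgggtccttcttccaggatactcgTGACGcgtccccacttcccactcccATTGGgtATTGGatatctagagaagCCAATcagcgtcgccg
HLA-C, minus strand, chr6:31272133-31272292: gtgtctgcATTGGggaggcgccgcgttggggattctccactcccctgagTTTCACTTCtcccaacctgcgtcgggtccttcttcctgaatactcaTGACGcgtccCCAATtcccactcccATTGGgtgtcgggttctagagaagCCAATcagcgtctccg
B2M, plus strand, chr15:44711317-44711476: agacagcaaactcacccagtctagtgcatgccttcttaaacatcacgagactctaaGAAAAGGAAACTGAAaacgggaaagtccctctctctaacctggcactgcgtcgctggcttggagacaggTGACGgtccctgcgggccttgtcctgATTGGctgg
TAP2, minus strand, chr6:32838780-32838939: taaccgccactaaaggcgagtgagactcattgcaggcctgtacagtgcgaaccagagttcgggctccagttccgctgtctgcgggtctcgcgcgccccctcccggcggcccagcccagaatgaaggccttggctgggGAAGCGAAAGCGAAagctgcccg

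HLA-B, HLA-C and B2M each hold TGACG followed on the same strand by ATTGG, with starts 25, 25 and 26 bases apart. That arrangement, allowing 24 to 27 bases, occurs in 40 of the 35116 promoters searched (0.114%). It was not found in the windows of TAP1, TAP2, TAPBP, PSMB8 or PSMB9. A repeat of the interferon-response type begins 155 bases before the start in HLA-B, 151 in HLA-C, 144 and 138 in B2M, 133 and 127 in TAP1, 63 and 58 in TAP2, and 20 and 14 in TAPBP. In PSMB8 such repeats lie at 1 of the 2 starts given, from 3 bases before it, and the window of PSMB9 held none. TAP1 also has 2 starts given, and its repeats lie at only 1 of them. Of all promoters, 8.11% hold GAAANNGAA, 7.66% hold GAANNGAAA and 8.03% hold GGGNNTCCC, while single matches to TGACG (24.6%) and ATTGG (34.6%) are more common. These are matches of letters and show no binding.

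The comparison of POLDIP2 KO with WT asks whether loss of POLDIP2 goes with a change in the class I route. Every tested gene of the 9 had a higher mean in POLDIP2 KO, by 1.18-fold for PSMB8 to 1.53-fold for TAP2 on the log2(normalised count + 1) scale, and TAP2 was the only one above 1.5-fold. None passed the test. With limma on log2(normalised count + 1), over the 14672 genes with a mean of at least 10, 0 of 7 tested genes were called at an adjusted p of 0.05 and a fold of 1.5, against 24 of all genes (0.164%). At an unadjusted p of 0.05, 2 of the 7 (B2M and TAP2) and 945 of all genes passed. TAP2 was tested only through a row named from the study's own list of different genes. HLA-E and PSMB9 did not reach a mean of 10 and were not tested. The median log2 fold change of the 7 was 0.29, beside 0.00 over all genes tested.

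B2M, the light chain that all class I molecules share, lies outside the MHC at chr15:44711358-44718851 (GRCh38, GENCODE 44, as for the other positions). Its summed rows gave 17192, 12497 and 14220 normalised counts for WT in replicate order, and 21463, 18452 and 19289 for POLDIP2 KO. The lowest POLDIP2 KO library was thus above the highest WT library. The mean was 14636 ± 2375 (SD, n = 3) in WT and 19735 ± 1555 (SD, n = 3) in POLDIP2 KO, and the log2 fold change was 0.44 (95% interval 0.10 to 0.78, limma adjusted p = 0.553). Both of its rows had the same separation between the lines: ENSG00000166710 ranged from 9153 to 13163 in WT and from 13332 to 15727 in POLDIP2 KO, and ENSG00000273686 from 3344 to 4028 and from 5056 to 5736. The second row held 23.4% to 27.7% of the B2M counts in every library.

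HLA-B, a heavy chain that presents peptides to cytotoxic T cells, lies in the MHC at chr6:31353872-31367067. It was at 7129, 5077 and 4240 normalised counts in WT, and at 10219, 6524 and 5779 in POLDIP2 KO. The lines overlap, since WT replicate 1 was above POLDIP2 KO replicates 2 and 3, yet each POLDIP2 KO library was above the WT library of its own number. The log2 fold change was 0.44 (95% interval -0.18 to 1.07, limma adjusted p = 0.977).

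HLA-C, a heavy chain that is also a main ligand of killer cell receptors, lies at chr6:31268749-31272130. Its normalised counts were 8114, 6560 and 5692 in WT, and 10317, 7365 and 7356 in POLDIP2 KO. Replicate 1 was the highest library in either line, as for HLA-B, and the lines overlap. The log2 fold change was 0.29 (95% interval -0.15 to 0.73, limma adjusted p = 0.987). Because heavy chain genes resemble one another and vary between people, reads of HLA-B and HLA-C can be assigned to the wrong gene, and their levels are uncertain.

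HLA-E, a heavy chain that presents leader peptides of other class I chains to natural killer cells, lies at chr6:30489509-30494194 and was listed at 0 in all 6 libraries. A count of 0 allows up to 3 reads, or 2.44 to 3.69 normalised counts per library, for that row and for counting error only. Since the gene has 2 identical copies on alternate contigs, the value describes 1 row and gives no level of HLA-E in these cells.

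TAP1 (chr6:32845209-32853816) and TAP2 (chr6:32821833-32838739) form the transporter that carries peptides into the endoplasmic reticulum. TAP1 was at 520, 664 and 749 normalised counts in WT, and at 552, 832 and 966 in POLDIP2 KO. The lines overlap, and replicate 1, the highest library for HLA-B and HLA-C, was here the lowest in either line. The log2 fold change of TAP1 was 0.26 (95% interval -0.31 to 0.83, limma adjusted p = 1.00).

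TAP2 was at 504, 501 and 504 normalised counts in WT, and at 700, 838 and 774 in POLDIP2 KO. The WT libraries were nearly equal, and all POLDIP2 KO libraries were above them. TAP2 had the largest change of the 7 tested genes, a log2 fold change of 0.61 (95% interval 0.31 to 0.91, limma adjusted p = 0.205). The row ENSG00000225967 held 97.0% to 100% of these counts, and the row on the primary assembly, ENSG00000204267, held 16, 12 and 0 reads in WT and 0, 27 and 0 in POLDIP2 KO. The second rows of B2M and TAP2 were named only from a supplementary sheet of genes that the study had called different in these libraries, so their separation was in effect selected and is no independent evidence of a direction.

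TAPBP, the tapasin gene at chr6:33299694-33314284, was at 3063, 2609 and 2650 normalised counts in WT, and at 4196, 3381 and 2623 in POLDIP2 KO. It was higher in POLDIP2 KO in replicates 1 and 2, and in replicate 3 the lines were nearly level. The log2 fold change was 0.27 (95% interval -0.15 to 0.70, limma adjusted p = 1.00).

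PSMB8 (chr6:32840717-32844679) and PSMB9 (chr6:32844136-32859851) replace PSMB5 and PSMB6 in the immunoproteasome, which cuts peptides suited to class I grooves. PSMB8 was at 61.4, 55.2 and 82.5 normalised counts in WT, and at 72.6, 70.0 and 90.4 in POLDIP2 KO. Its lines overlap, and its log2 fold change was 0.24 (95% interval -0.41 to 0.88, limma adjusted p = 1.00). PSMB9 had 8, 6 and 3 recovered reads in WT and 6, 13 and 20 in POLDIP2 KO, and replicate 3 was the lowest library in WT and the highest in POLDIP2 KO. As normalised counts these were 7.56, 6.02 and 3.13 in WT, and 7.38, 10.6 and 19.9 in POLDIP2 KO (exact permutation test, two-sided p = 0.2, where 0.1 is the smallest that 3 against 3 libraries allow).

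**Figure D2:**
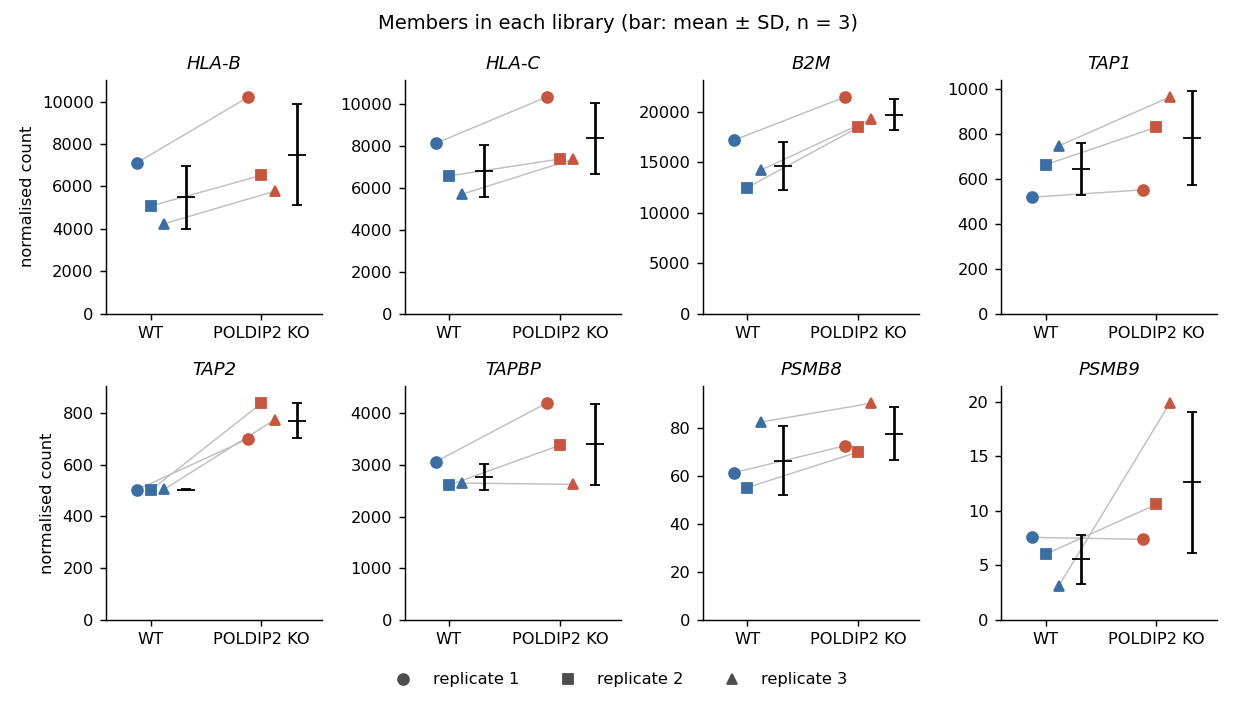
Normalised counts of 8 members in each library (circles, squares and triangles for replicates 1, 2 and 3, grey lines joining equal numbers, bars the mean ± SD, n = 3), with linear axes from 0. In B2M and TAP2 all POLDIP2 KO libraries lie above all WT libraries, and in the other genes the lines overlap. HLA-E, at 0 in all libraries, is left out.

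Per kilobase of canonical transcript, the levels in WT followed the order B2M (15521), HLA-C (4402), HLA-B (3569), TAPBP (804), TAP1 (240), TAP2 (89.1), PSMB8 (59.0) and PSMB9 (5.48). In POLDIP2 KO the order was unchanged, from 20927 for B2M to 12.4 for PSMB9. HLA-C and HLA-B are neighbours in this order. HLA-C was above HLA-B in every library, if only just in POLDIP2 KO replicate 1 (10317 and 10219 normalised counts). Their ranges over libraries overlap in either line and reads of either can be assigned to the other, so their order is uncertain. These levels are for the named rows alone, so a gene with identical copies on other contigs can be higher than shown.

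Counted over libraries, 2 of the 7 tested genes (B2M and TAP2) had all POLDIP2 KO libraries above all WT libraries, which 5.45% of all tested genes did, and none had the opposite order. Libraries of the same replicate number were taken as pairs, though only replicate 1 stood out. Deviations correlated at 0.316, 0.137 and 0.129 in pairs 1, 2 and 3, but at 0.149 for WT replicate 3 with POLDIP2 KO replicate 2. Whether the numbers pair the libraries is thus uncertain, and the fits with a replicate block rest on it. Taken so, 6 of the 7 genes were higher in POLDIP2 KO in all 3 pairs, the exception being TAPBP. Of all tested genes, 17.0% did so. TAP2 enters both counts through a row named because the study had called it different in these libraries, so its part was selected. With rows named from GENCODE alone, 1 member (B2M) was without overlap. The ratio of POLDIP2 KO to WT in pairs 1, 2 and 3 was 1.43, 1.28 and 1.36 for HLA-B, and 1.27, 1.12 and 1.29 for HLA-C. It was 1.25, 1.48 and 1.36 for B2M, and 1.39, 1.67 and 1.53 for TAP2. The ratios of TAP1 (1.06, 1.25 and 1.29) and PSMB8 (1.18, 1.27 and 1.10) were smaller, and those of TAPBP were 1.37, 1.30 and 0.990. The 9 genes share libraries, and 8 of them lie in 1 region of chromosome 6, so they do not count as separate replicates.

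With the replicate number as a block, limma called 0.204% of all tested genes and again none of the 7. The adjusted p was then 0.118 for HLA-B, 0.124 for B2M, 0.144 for TAP2 and 0.270 for HLA-C, and 0.499 to 0.802 for the other 3. A count test gave other answers. DESeq2 on the recovered reads, which called 1.68% of all genes, called TAP2 (adjusted p = 0.0040) and no other member. Nearly all TAP2 counts lie in a row named because the study had called it different in these libraries, also with DESeq2. A DESeq2 call of TAP2 was thus close to fixed beforehand. DESeq2 with the block, chosen after seeing the data, put 3.80% of all genes at an adjusted p under 0.05 with any fold, among them HLA-B (0.00022), B2M (0.00028) and TAP2 (0.016) but not HLA-C (0.068), and of these only TAP2 was past a fold of 1.5, as were 2.64% of all genes. The edgeR quasi-likelihood test called no member without the block, where it called 0.116% of all genes, or with it, where it called 0.0341%. Without the block, DESeq2 gave adjusted p values of 0.942 for HLA-B and 0.209 for B2M. Whether these genes differ between the lines thus depended on the tool and on the block, which rests on an uncertain pairing.

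**Figure D3:**
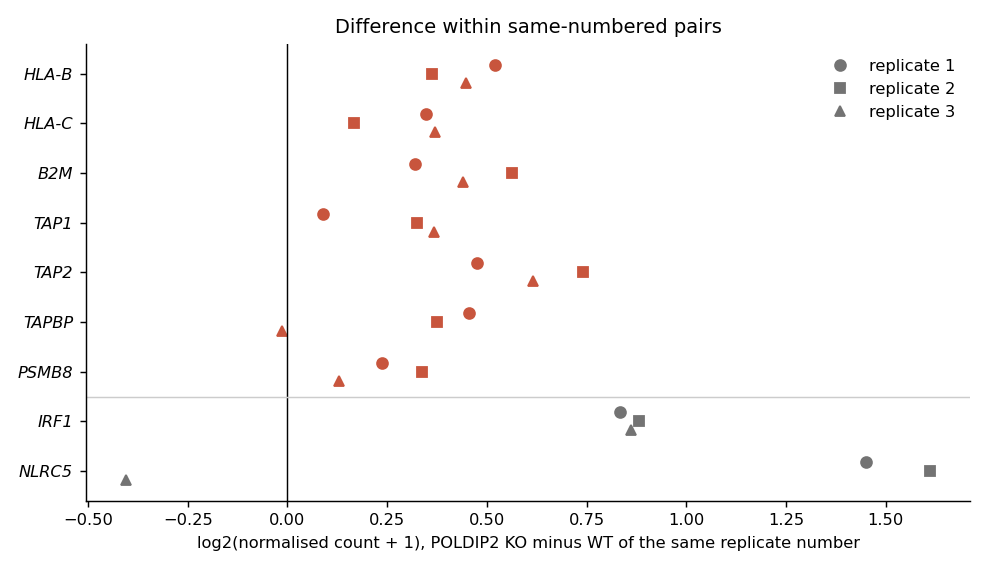
Difference in log2(normalised count + 1) between POLDIP2 KO and WT of the same replicate number, for the 7 tested members and for IRF1 and NLRC5 below the line. The points of HLA-B, HLA-C, B2M, TAP1, TAP2 and PSMB8 are all above 0, while TAPBP and NLRC5 have points on either side.

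Other class I genes were mixed. Of the 9 genes in the list of other heavy chains and class I-like genes, 6 were tested and 0 called, with 4 higher, 2 lower and a median log2 fold change of 0.39. HFE, an iron regulator that also binds B2M, was at 793 to 1180 in WT and 1191 to 1498 in POLDIP2 KO, and MR1, which presents vitamin B metabolites, was at 667 to 819 and 859 to 1028. Both were without overlap between the lines. HFE had an adjusted p of 0.678 with limma and 0.024 with DESeq2 and the block. FCGRT, the neonatal Fc receptor chain that pairs with B2M too, was lower in all 3 pairs (log2 fold change -0.31, limma adjusted p = 1.00). The row of MICA, a stress-induced ligand, was at 0 in WT replicate 3 and at 382 to 567 in the other 5 libraries, so its fold change has no reading. MICA is nonetheless counted among the 4 higher genes, and it raises the median of 0.39.

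Peptide loading and trimming genes gave 0 calls among 8 tested, with 6 higher and 2 lower and a median of 0.33. ERAP1, which trims peptides in the endoplasmic reticulum, was at 3332, 2573 and 2996 normalised counts in WT and 3393, 3608 and 4067 in POLDIP2 KO, without overlap (log2 fold change 0.32, limma adjusted p = 0.757). ERAP2, its partner, was higher in all 3 pairs (log2 fold change 0.34), with a limma adjusted p of 0.889 and 0.037 by DESeq2 with the block. The other loading genes, PDIA3, CANX, TAPBPL, CALR, UGGT1 and HSPA5, differed by 0.56, 0.44, 0.34, 0.03, -0.03 and -0.07 on the log2 scale, none past the test (limma adjusted p 0.960 to 1.00).

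Proteasome genes allowed a look at the exchange of subunits. Of the 13 tested constitutive subunits of the core particle, 0 were called, 0 were higher in all 3 pairs, and log2 fold changes ran from -0.07 to 0.10. PSMB5, PSMB6 and PSMB7 had log2 fold changes of 0.03, -0.01 and -0.01. PSMB8 reached 1.33% to 1.79% of the PSMB5 count in WT and 1.60% to 2.06% in POLDIP2 KO, which overlap. PSMB9 was at 0.087% to 0.258% of PSMB6 in WT and 0.231% to 0.623% in POLDIP2 KO. PSMB10, the third inducible subunit and the only one outside the MHC, was at 407, 356 and 452 normalised counts in WT and 502, 441 and 456 in POLDIP2 KO, or 7.37% to 10.6% and 8.91% to 12.5% of PSMB7. PSMB10 has no alternate copy, whereas the rows of PSMB8 and PSMB9 may hold only some of their reads. Among the 4 tested partners and activators, PSMB10 included, 0 were called and the median log2 fold change was 0.00.

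**Figure D4:**
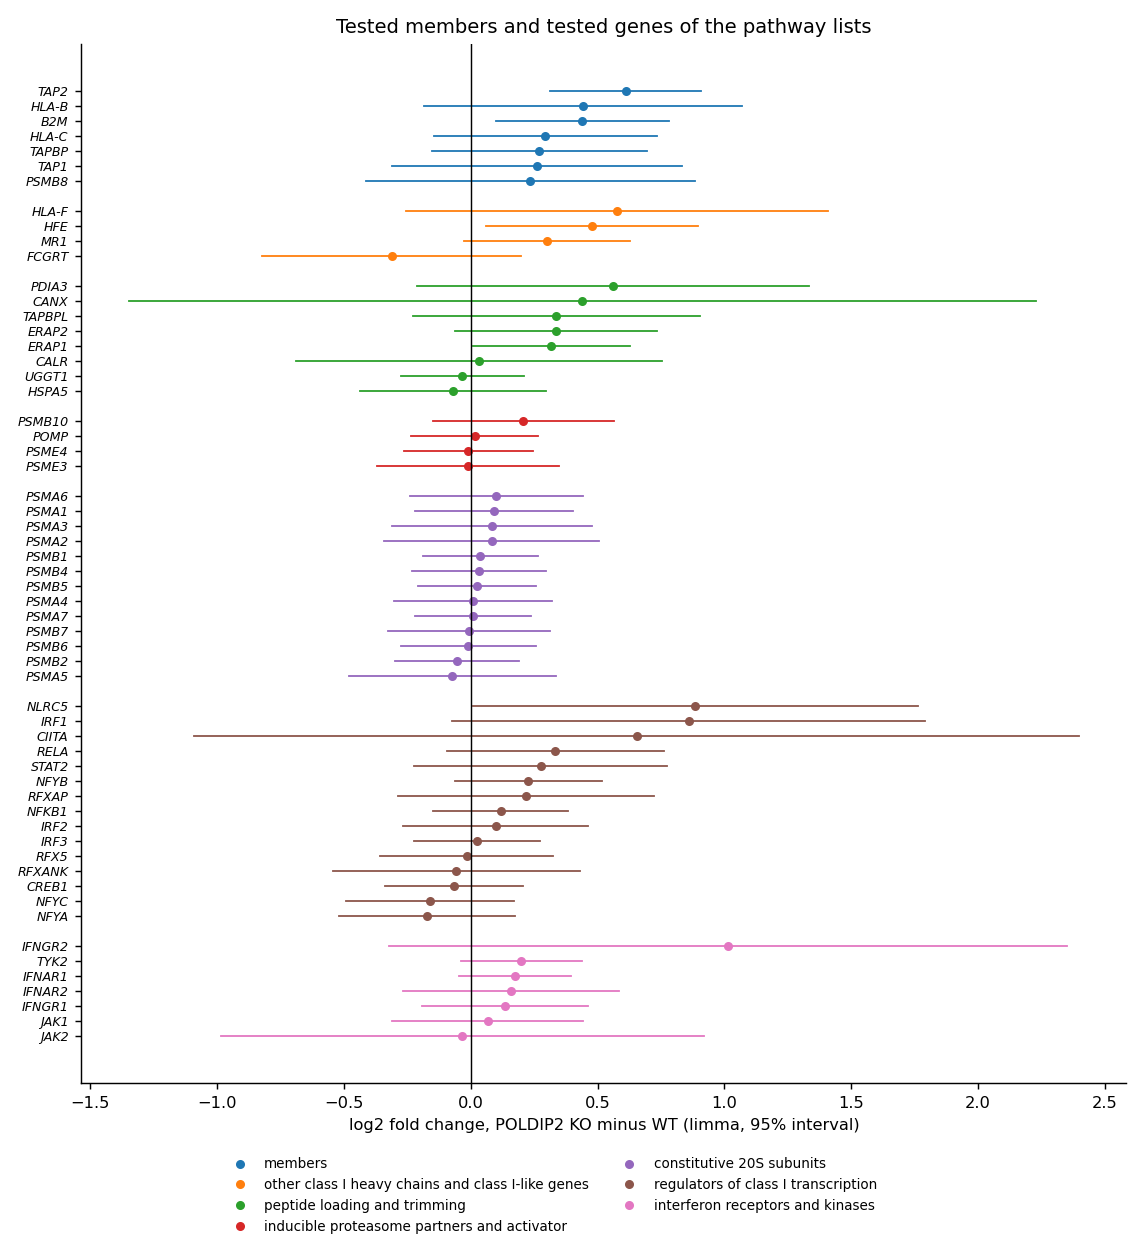
Log2 fold change (points) with its 95% interval (lines) from limma for tested members and tested genes of 6 pathway lists, coloured by list. MICA, with 1 library at 0, is left out, as are a few genes not reported here. Among the members, the intervals of TAP2 and B2M lie above 0 before adjustment, and the points of the constitutive proteasome subunits lie between -0.07 and 0.10.

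Regulators of class I transcription had 16 tested genes, 11 higher and 5 lower, with 0 called and a median of 0.15. IRF1, an interferon-induced activator of this route, was at 272, 619 and 467 normalised counts in WT and 486, 1142 and 849 in POLDIP2 KO. The ratio in the pairs was nearly constant, at 1.79, 1.84 and 1.82, and replicate 1 was the lowest in either line. The log2 fold change of IRF1 was 0.86 (95% interval -0.07 to 1.79), and the limma adjusted p was 0.833 without the block and 0.073 with it. DESeq2 with the block gave 2.4e-05, and IRF1 was then the only gene of the pathway lists to be called. NLRC5, the class I transactivator, was at 627, 503 and 988 in WT and 1716, 1539 and 746 in POLDIP2 KO, so the ratio was 2.74 and 3.06 in pairs 1 and 2 and 0.755 in pair 3 (log2 fold change 0.89, limma adjusted p = 0.769).

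Interferon genes themselves were at the floor: IFNG and IFNB1 were listed at 0 in every library. Of the 7 tested receptors and kinases, 0 were called, with 6 higher and a median of 0.16. IFNAR1, a chain of the type I interferon receptor, was at 2145 to 2383 in WT and 2533 to 2623 in POLDIP2 KO, and TYK2, a kinase bound to it, was at 2168 to 2464 and 2502 to 2758. Both were without overlap, with log2 fold changes of 0.17 and 0.20 and limma adjusted p values of 0.933 and 0.892. Of the 10 class II genes with a row, most of which have alternate copies too, only CD74, the invariant chain, reached the minimum, at 37.1 to 38.7 in WT and 38.7 to 50.4 in POLDIP2 KO.

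Genes outside these lists were ranked by the likeness of their pattern to the mean of the 7 tested members, each standardised over the 6 libraries. That mean ran from -0.39 to -0.12 in WT and from 0.19 to 0.37 in POLDIP2 KO. A high rank therefore selects genes that are higher in POLDIP2 KO, and their direction is no separate result. The 5 named genes with the highest Pearson r were CASP4 (0.997), DERL1 (0.996), ITGA5 (0.993), IL13RA1 (0.993) and GBP2 (0.992), a description over 6 libraries that share the lines and their depth. GBP2, a guanylate-binding GTPase, was at 28.3, 9.03 and 15.7 normalised counts in WT and 442, 217 and 291 in POLDIP2 KO, and it was among the 24 genes called (log2 fold change 4.16, limma adjusted p = 0.037). ITGA5, an integrin chain that binds fibronectin, was at 9599 to 11667 and 17495 to 22395, with a limma adjusted p of 0.103.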

How the data were processed

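RNA-seq libraries of 3 WT and 3 POLDIP2 KO replicates of ARPE-19, all from day 3, were analysed. The signal in each deposited column is a normalised count: the authors ran Salmon 1.8, imported its estimates per gene for GRCh38 through tximport, and scaled each library by its DESeq2 1.34.0 size factor. The annotation release and strand setting are not given in the sources used here. All 6 columns were used, so 0 were left out. Every value was a whole multiple (100% within 0.001) of the step of 1 read in its library, which gave the recovered reads. The step is near 1 for replicate 2 of WT and replicate 3 of POLDIP2 KO, where whole values therefore tell little. Intervals and floors cover counting error only.

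Of the 37902 rows, 34152 were named from GENCODE 44 identifiers and 14 from a supplementary sheet of the paper, whose fold changes and p values were not used. The 3736 rows without a name held 3.39% to 3.65% of the normalised counts. Rows were summed to 37882 genes. Genes with a mean of at least 10 (14672) were tested with limma 3.58.1 (R 4.3.3), applied to log2(normalised count + 1), with eBayes trend and Benjamini-Hochberg adjustment. Adding 1 understates changes of low genes. A call needs an adjusted p under 0.05 and a fold over 1.5. edgeR 4.0.16 and DESeq2 1.42.0 were run on the recovered reads. Alternate contigs were searched with minimap2 2.31. The limma, edgeR and DESeq2 fits without the block were tested on simulated data, and those with the block were not. Figures were made with matplotlib 3.10.9 under Python 3.11.15.

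The replicate numbers come from the labels. Deviations of same-numbered libraries from their line's mean correlated at 0.316, 0.137 and 0.129 over 14672 genes (other pairs -0.260 to 0.149), above the limit of 0.1 set for pairing. WT replicate 3 with POLDIP2 KO replicate 2, at 0.149, passed that limit too, so the pairing of replicates 2 and 3 is uncertain.

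The members and lists were chosen with earlier results of these data known. Named genes are the 9 members, POLDIP2, genes of the lists that were called or without overlap between the lines, PSMB5, PSMB6 and PSMB7, and the 5 named genes most like the members. FCGRT, MICA, the loading genes other than ERAP1, PSMB10, IRF1, NLRC5, IFNG, IFNB1, CD74 and the cell type markers were picked once their values had been seen. PSME1, PSME2, IRF9 and HLA-DPA1 were not analysed here. Some genes counted in the lists are not reported here on their own.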

Additional observations from a re-analysis of the deposited data

How the results depend on the processing

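The log2 fold changes of the 7 tested members were recomputed 152 times over other settings and kept their direction each time, and 150 kept their side of the threshold. The others were TAP2 with DESeq2 on recovered reads, without and with the replicate block, which makes 1 member called in place of 0. In many settings, such as the limma block, the eBayes options and the filters, the estimate cannot change. The kept direction was fixed beforehand there and tests nothing. TAP2 was the only member called under any setting, and its main row was named because the study had called it different in these libraries. When 1 library was left out, log2 fold changes ran from 0.20 to 0.65 for HLA-B, 0.13 to 0.43 for HLA-C, 0.33 to 0.56 for B2M, 0.09 to 0.49 for TAP1, 0.55 to 0.68 for TAP2, 0.11 to 0.45 for TAPBP and 0.11 to 0.40 for PSMB8. The 24 calls over all genes became 14 without trend in eBayes, 5 with edgeR and the replicate block, 246 with DESeq2, 387 with DESeq2 and the replicate block, and 0 to 10 when 1 library was left out (10 without WT or POLDIP2 KO replicate 1, 0 without any of the others, where 688 to 899 genes still had an unadjusted p under 0.05). The replicate block with limma gave 30. In the pathway lists, 0 genes were called, and 1 (IRF1) with DESeq2 and the replicate block. Members without overlap between the lines numbered 2, and 1 when rows were named by the reference table alone, a setting added after seeing the data like DESeq2 with the block. With 1 library left out they numbered 2 to 4 (4 without WT replicate 1, where HLA-B and HLA-C joined B2M and TAP2). Fewer libraries separate more easily, and the share over all genes was not computed for them, so these counts show no gain. Among the members, the replicate block changed no call with any of these tools. Few reads limit PSMB9, and the single named row of HLA-E was at 0, which gives no level.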
